A study of Homo sapiens with 6 samples.

Results

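The genes described here are 28 members of the cholesterol and fatty acid synthesis pathways, followed in SK-Hep1 cells after inhibition of miR-21. They were taken by name, as every probe set that the array annotation gives to them. SK-Hep1 is an established human cell line derived from a liver tumour. It was compared after transfection with anti-miR-21, an oligonucleotide inhibitor of the microRNA miR-21, at 20 nM (3 arrays) and after mock treatment with PBS in place of the inhibitor (3 arrays). Both groups were given the same transfection lipid 24 hours after plating and were collected 16 hours later, and the mock group received no control oligonucleotide. All 6 samples came from 1 line, and the labels name biological replicates but do not say how the cultures were separated. The labels give total RNA but cite an Argonaute pull-down procedure for collection, so the RNA fraction measured is not certain. Mature miR-21 itself was not measured here, so its inhibition was not checked in these samples.

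Cholesterol is built from acetyl-CoA. The mevalonate pathway makes isoprenoid units, which are joined to squalene, closed to lanosterol and trimmed to cholesterol. The genes of these enzymes share a controller, the SREBP transcription factors, which the SCAP protein escorts out of the endoplasmic reticulum when membrane sterol is low and which the INSIG proteins hold back when it is high. SREBPs also drive the enzymes that turn citrate into saturated and monounsaturated fatty acids, and in the liver both pathways supply lipoproteins and membranes. The microRNA that the inhibitor targets is a widely expressed RNA that is raised in many tumours. It is shown because its seed, in capitals (bases 2 to 8), is what pairs with target messages, from RefSeq on GRCh38.p14, chr17:59841273-59841294, plus strand.
hsa-miR-21-5p: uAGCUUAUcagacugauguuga

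Of the 28 genes, 26 had at least 1 probe set that lists no other gene, 58 probe sets in all, among 19775 such genes on the array. Values are log2 expression as deposited. A probe set was tested where its mean over the 6 arrays was at least 4, which kept 51 of the 58 probe sets and 25 of the 28 genes, against 10848 genes in all. Each gene is represented by its brightest kept probe set. Of the 3 members left out of the test, MVD, which decarboxylates mevalonate diphosphate, averaged 2.83 in anti-miR-21 cells and 2.92 in mock cells on its only probe set, below the filter. CYP51A1, which demethylates lanosterol, had only probe sets shared with the neighbouring gene LRRD1. FDFT1, squalene synthase, had no probe set under its name in the annotation, alone or shared, and was not analysed. The 7 probe sets left out by the filter had means up to 3.29.

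Within groups the arrays correlated at 0.99625 to 0.99828 and between groups at 0.99387 to 0.99729. On the first principal component (50.4% of variance), anti-miR-21 replicates lay at 3.51, 20.11 and 19.63 and mock replicates at -7.25, -16.04 and -19.95, so anti-miR-21 replicate 1 lay nearest to the mock arrays. Of 7 measured hepatocyte markers only AFP passed the filter, while ALB, FGB, CYP3A4, ASGR1, TAT and APOH did not. Of 8 endothelial markers TEK and CLDN5 passed. All 6 mesenchymal markers passed, and the list averaged 11.94 to 12.02 in anti-miR-21 cells and 11.94 to 12.16 in mock cells. Of 3 epithelial markers EPCAM and KRT19 passed, and the list averaged 7.88 to 8.01 in anti-miR-21 cells and 7.88 to 8.13 in mock cells. Markers of steroid-producing cells and of adipocytes, other users of these pathways, passed in 0 of 3 cases each, as did 0 of 3 leukocyte markers. No marker in these lists passed the test between groups by limma. In bulk RNA, fewer cells of a type and less RNA per cell cannot be told apart.

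No sterol or fatty acid synthesis gene passed the test between anti-miR-21 and mock cells. By limma with Benjamini-Hochberg adjustment over all kept probe sets, 0 of 25 genes were called at an adjusted p under 0.05, where 2.13% of all genes tested were called (99 higher and 132 lower). At an unadjusted p under 0.05 there were 8 members, 7 lower and 1 higher, against 18.1% of all genes (11.3% lower and 6.84% higher). The direction was mostly one way: 20 of 25 members (80.0%) had a log2 fold change below 0, against 56.7% of all genes. The median log2 fold change was -0.108 over the members and -0.018 over all genes tested. The members were chosen with earlier results of these data known, and all were read on the same arrays. So these shares describe the members and are not independent observations, and the members were not tested as a set.

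All 3 anti-miR-21 arrays lay below all 3 mock arrays in 11 of 25 members (44.0%), where 15.1% of all genes did so. They lay above all 3 mock arrays in 1 member, STARD4 (4.0%), where 10.4% of all genes did so. The gap between groups could be narrow. The highest anti-miR-21 and lowest mock values were 10.36 and 10.37 for PMVK, 12.92 and 12.93 for MSMO1, and 9.66 and 9.84 for INSIG2. As medians over the 25 genes, deviations from each gene's mean over the 3 mock arrays were -0.086, -0.117 and -0.087 after anti-miR-21 and 0.029, -0.034 and 0.029 after mock treatment. The same medians over all genes were -0.017, -0.027 and -0.011 in anti-miR-21 arrays. These shifts were small. The 95% intervals of all 25 tested members lay within 1.5-fold in either direction, the widest reaching -0.50 and 0.47 on the log2 scale, as did those of 10143 of 10848 genes.

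**Figure D1:**
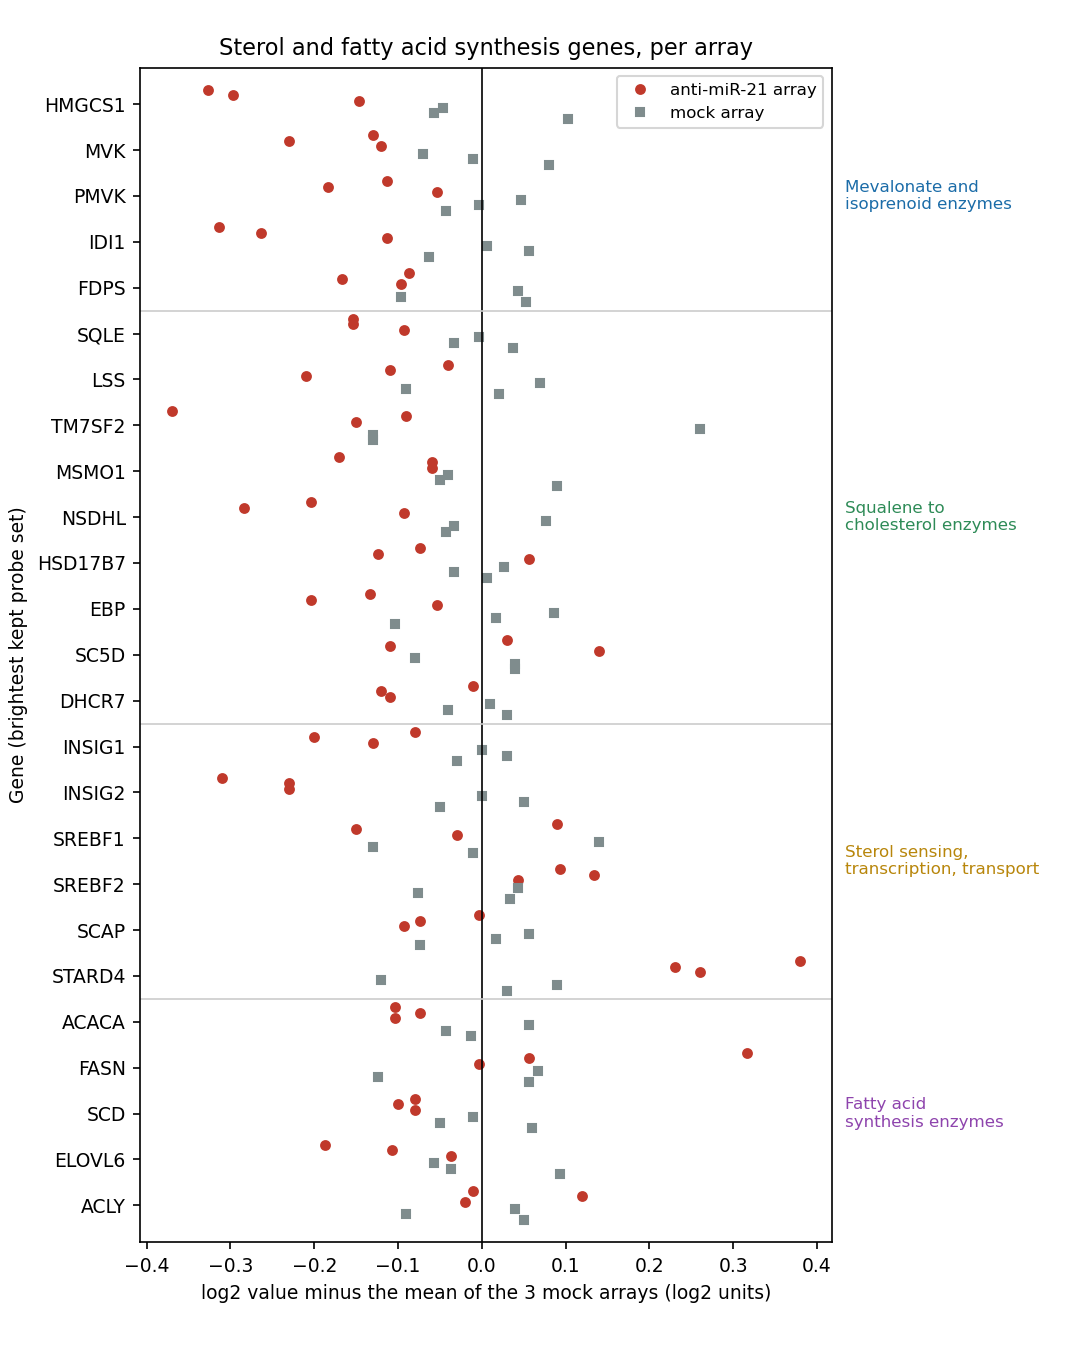
Log2 value of each tested gene in each array (horizontal axis, log2 units) minus the mean of the 3 mock arrays, by pathway step, with circles for anti-miR-21 and squares for mock arrays. In 11 genes all 3 circles lie left of all squares, and in STARD4 all 3 lie right.

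The promoters of 3 members with small unadjusted p-values, INSIG2, STARD4 and HMGCS1, and of SREBF2, the 1 member of the 25 searched whose windows hold a sterol regulatory element core, are shown because SREBP and its partner NF-Y act through such sites. Each window runs from 250 bases before to 50 after the RefSeq transcription start on GRCh38.p14, written 5′ to 3′ on the gene's strand. Capitals mark TCACNCCAC, the core of a sterol regulatory element, and CCAAT, which NF-Y binds, or its reverse complement. The windows are INSIG2 at chr2:118088221-118088520 (plus strand), STARD4 at chr5:111512486-111512785 (minus), HMGCS1 at chr5:43313363-43313662 (minus) and SREBF2 at chr22:41832855-41833154 (plus). INSIG2 and HMGCS1 have other starts, and the window shown for HMGCS1 is the one with matches.
INSIG2: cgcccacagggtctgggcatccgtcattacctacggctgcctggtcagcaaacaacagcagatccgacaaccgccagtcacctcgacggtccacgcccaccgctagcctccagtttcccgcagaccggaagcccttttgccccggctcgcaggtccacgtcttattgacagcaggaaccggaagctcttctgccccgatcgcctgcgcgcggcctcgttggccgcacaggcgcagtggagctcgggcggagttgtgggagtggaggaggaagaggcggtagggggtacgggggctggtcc
STARD4: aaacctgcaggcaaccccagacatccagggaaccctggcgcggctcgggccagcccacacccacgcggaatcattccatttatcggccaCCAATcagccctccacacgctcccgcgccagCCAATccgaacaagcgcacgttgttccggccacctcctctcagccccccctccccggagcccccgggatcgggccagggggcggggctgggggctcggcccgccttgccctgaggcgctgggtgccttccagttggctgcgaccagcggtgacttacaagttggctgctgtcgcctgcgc
HMGCS1: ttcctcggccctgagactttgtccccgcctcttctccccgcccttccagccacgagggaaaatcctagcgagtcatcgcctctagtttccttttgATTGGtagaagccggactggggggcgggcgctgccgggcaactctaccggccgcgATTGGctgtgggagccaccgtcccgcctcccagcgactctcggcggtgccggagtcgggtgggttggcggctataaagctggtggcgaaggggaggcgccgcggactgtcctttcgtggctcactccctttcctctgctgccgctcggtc
SREBF2: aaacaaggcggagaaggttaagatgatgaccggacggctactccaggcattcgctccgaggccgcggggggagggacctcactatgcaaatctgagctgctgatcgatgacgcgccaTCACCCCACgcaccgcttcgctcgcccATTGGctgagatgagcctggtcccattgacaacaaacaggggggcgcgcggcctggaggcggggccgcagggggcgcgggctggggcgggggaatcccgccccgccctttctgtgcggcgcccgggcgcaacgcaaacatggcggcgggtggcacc

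Promoter windows were found for 25 of the 28 members (34 windows) and searched on both strands for these letters. CCAAT was in 67.6% of the member windows (19 of 25 genes), against 34.6% of 35116 RefSeq windows of the same length. The GC box GGGCGG, to which SP1 binds, was in 91.2% of member windows, against 45% of all. The E-box CACGTG was in 14.7% of member windows (4 of 25 genes), against 7.26%. Some windows of the same gene overlap, such as those of SC5D, so 1 site can count more than once. The RefSeq windows cover 27305 genes, whether or not they were expressed here. TCACNCCAC was in 1 of 34 member windows (2.94%), against 1.13%. Only exact matches to this string were searched, so a gene without one is not shown to lack a sterol regulatory element. CCAAT was in the HMGCS1 and STARD4 windows shown, and INSIG2 had none in either window. These matches describe letters only, and no relation between a match and a change in expression was tested.

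The enzymes of the mevalonate and isoprenoid steps had the most negative median of the 4 groups of members. All 5 tested members had a log2 fold change below 0, with a median of -0.162 and a range from -0.26 to -0.11, and none passed the test. In 4 of the 5, every anti-miR-21 array lay below every mock array, as in 15.1% of all genes. The medians over the 5 genes were -0.119, -0.23 and -0.133 after anti-miR-21 and 0.054, -0.011 and 0.009 after mock treatment, on the same scale.

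HMGCS1, which condenses acetyl-CoA units to HMG-CoA and so opens the pathway, read 9.79, 9.64 and 9.61 in anti-miR-21 cells, against 10.04, 9.88 and 9.89 in mock cells. No array of one group reached the other. Its log2 fold change was -0.26 ± 0.072 (SE; 95% interval -0.43 to -0.08; adjusted p = 0.136 by limma). On the unlogged scale this is a mock to anti-miR-21 ratio of 1.194. A second HMGCS1 probe set gave -0.16 with overlapping groups (adjusted p = 0.668 by limma).

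IDI1, the isomerase that makes dimethylallyl diphosphate, read 12.97, 12.82 and 12.77 in anti-miR-21 cells, against 13.02, 13.14 and 13.09 in mock cells. The groups did not overlap and the log2 fold change was -0.23 ± 0.067 (SE; adjusted p = 0.145 by limma). Another bright IDI1 probe set gave -0.19, and a dim one with values of 4.01 to 4.91 in anti-miR-21 cells and 4.2 to 4.45 in mock cells gave 0.13. Both bright IDI1 probe sets are of a type that can bind related transcripts. So are 13 of the 25 probe sets that represent the tested members, that of IDI1 among them.

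MVK, mevalonate kinase, read 9.75, 9.64 and 9.74 in anti-miR-21 cells, against 9.95, 9.86 and 9.8 in mock cells, with no overlap (log2 fold change -0.16 ± 0.061 SE; adjusted p = 0.232 by limma). Its other kept probe sets gave -0.26 and -0.41. The -0.41 came from values of 8.25, 7.68 and 8.02 in anti-miR-21 cells, against 8.39, 8.37 and 8.42 in mock cells, and replicate 2 was the lowest. PMVK, the next kinase, had a log2 fold change of -0.11 (adjusted p = 0.356), and FDPS, which makes farnesyl diphosphate, of -0.12 (adjusted p = 0.368), both by limma. PMVK arrays did not overlap between groups and FDPS arrays did.

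**Figure D2:**
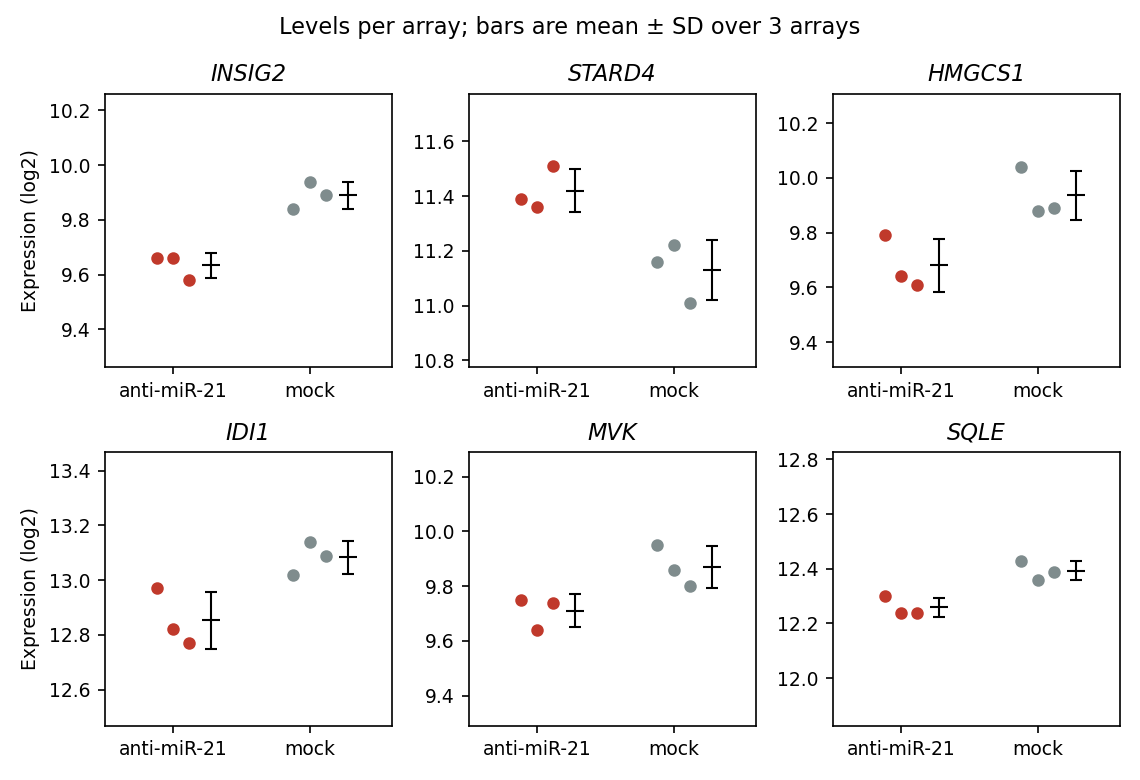
Log2 expression per array (vertical axis, log2 units) of 6 members in anti-miR-21 (left) and mock cells (right), with bars for the mean ± SD of 3 arrays. The 6 genes were picked with their values known, and in all of them the groups do not overlap. Of the 25 tested members, 11 lay lower without overlap and 1 higher, as did 15.1% and 10.4% of all genes. Values of 1 gene can be compared between groups, not values of different genes.

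Among the enzymes from squalene to cholesterol, 8 of 9 tested members had a log2 fold change below 0, with a median of -0.118, and 0 of 9 passed the test (smallest adjusted p = 0.221 by limma; 2 at an unadjusted p under 0.05, both lower, against 11.3% of all genes lower). The groups did not overlap for SQLE, MSMO1 and NSDHL, 3 of the 9 (33.3%, against 15.1% of all genes). SQLE, the epoxidase that starts the cyclisation route, read 12.3, 12.24 and 12.24 in anti-miR-21 cells, against 12.43, 12.36 and 12.39 in mock cells. The log2 fold change was -0.13 ± 0.049 (SE; adjusted p = 0.226 by limma), and its other kept probe sets gave -0.10 and -0.26, neither with overlap.

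NSDHL, a dehydrogenase that removes methyl groups from the sterol ring, read 10.82, 10.63 and 10.71 in anti-miR-21 cells, against 10.87, 10.88 and 10.99 in mock cells. This was a log2 fold change of -0.19 ± 0.068 (SE; adjusted p = 0.221 by limma), with -0.15 on its second probe set. MSMO1, the oxidase that acts with it, stood at -0.10, and LSS, which closes squalene epoxide to lanosterol, at -0.12. The 3 LSS probe sets did not point one way: the others gave -0.16 and 0.16.

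TM7SF2, a sterol reductase, had a log2 fold change of -0.20 at a low level of 4.72 to 5.0 in anti-miR-21 cells and 4.96 to 5.35 in mock cells. That value rested partly on single arrays, being -0.12 if anti-miR-21 replicate 3 was left out and -0.07 if mock replicate 3 was. EBP, a sterol isomerase, gave -0.14, and its other kept probe sets -0.16 and 0.04. HSD17B7, a ketoreductase that acts with MSMO1 and NSDHL, had -0.05, SC5D, a desaturase that acts after EBP, 0.02, and DHCR7, the final reductase, -0.08. CYP51A1 could be read only with LRRD1. One shared probe set read 12.51, 12.62 and 12.64 in anti-miR-21 cells, against 12.81, 12.72 and 12.75 in mock cells (log2 fold change -0.17 ± 0.057 SE; adjusted p = 0.187 by limma), and the other gave -0.16 with overlap.

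Over both enzyme groups, 13 of 14 tested sterol enzymes had a log2 fold change below 0 (92.9%, against 56.7% of all genes) and 7 did not overlap between groups (50.0%, against 15.1%). Their median was -0.126. These shares are descriptive too, as the genes were chosen with earlier results of these data known.

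The regulators and carriers of sterol did not share a direction: 4 of 6 were below 0, with a median log2 fold change of -0.042. INSIG2, a protein of the endoplasmic reticulum that holds SCAP and SREBP there, had the smallest p of the 25 members. It read 9.66, 9.66 and 9.58 in anti-miR-21 cells, against 9.84, 9.94 and 9.89 in mock cells, averages of 9.63 ± 0.04 and 9.89 ± 0.05 (SD, n = 3 arrays each). The arrays did not overlap. The log2 fold change was -0.26 ± 0.053 (SE; 95% interval -0.38 to -0.13; adjusted p = 0.0679 by limma). On the unlogged scale this is a mock to anti-miR-21 ratio of 1.195. INSIG2 has 1 kept probe set. With each gene's probe sets averaged before the fit and p-values adjusted over 10848 genes, the adjusted p by limma was 0.0444 for the same log2 fold change.

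STARD4, a cytosolic carrier of cholesterol, was the member with the highest log2 fold change. It read 11.39, 11.36 and 11.51 in anti-miR-21 cells, against 11.16, 11.22 and 11.01 in mock cells, averages of 11.42 ± 0.08 and 11.13 ± 0.11 (SD, n = 3 arrays each). Every anti-miR-21 array was above every mock array. The log2 fold change was 0.29 ± 0.074 (SE; 95% interval 0.11 to 0.47; adjusted p = 0.113 by limma), a ratio of 1.222. STARD4 has 1 kept probe set. It is, like the sterol enzymes, a known SREBP target, and whether SREBP activity differed between the groups was not tested.

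INSIG1, which acts like INSIG2 and is itself induced by SREBP, read 12.96, 12.89 and 13.01 in anti-miR-21 cells, against 13.06, 13.12 and 13.09 in mock cells. The groups did not overlap (log2 fold change -0.14 ± 0.053 SE; adjusted p = 0.239 by limma), and its other probe sets gave -0.13 and -0.08. SREBF2, which encodes the SREBP form that mainly drives sterol enzymes, read 9.02, 9.11 and 9.07 in anti-miR-21 cells, against 9.01, 8.9 and 9.02 in mock cells. The groups touched at 9.02, and the log2 fold change was 0.09 ± 0.056 (SE; 95% interval -0.04 to 0.22). The other kept SREBF2 probe sets gave 0.11 and -0.09, both with overlap, so they did not share a direction. SREBF1, whose products drive fatty acid enzymes more, had -0.03 ± 0.093 (SE), and SCAP -0.06, both with overlapping groups. The second kept SREBF1 probe set gave 0.0.

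Of the fatty acid synthesis enzymes, none of the 5 passed the test (0 at an unadjusted p under 0.05; smallest adjusted p = 0.396 by limma), 3 had a log2 fold change below 0, and the median was -0.087. ACLY, which splits citrate to acetyl-CoA, had 0.03 on its brightest probe set and -0.06 and 0.0 on the others. ACACA, which makes malonyl-CoA, had -0.09 with no overlap between groups, and 0.02 with overlap on its second probe set.

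FASN, which assembles palmitate, read 10.67, 10.73 and 10.99 in anti-miR-21 cells, against 10.73, 10.55 and 10.74 in mock cells. The groups overlapped, and anti-miR-21 replicate 3 was the highest array (log2 fold change 0.12, 95% interval -0.11 to 0.36). ELOVL6, which lengthens palmitate, had -0.11 and, on its other probe sets, -0.09 and -0.09. SCD, the desaturase that makes oleate, had -0.09 with no overlap on its brightest probe set, and values between 0 and 0.05 on the other 3.

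**Figure D3:**
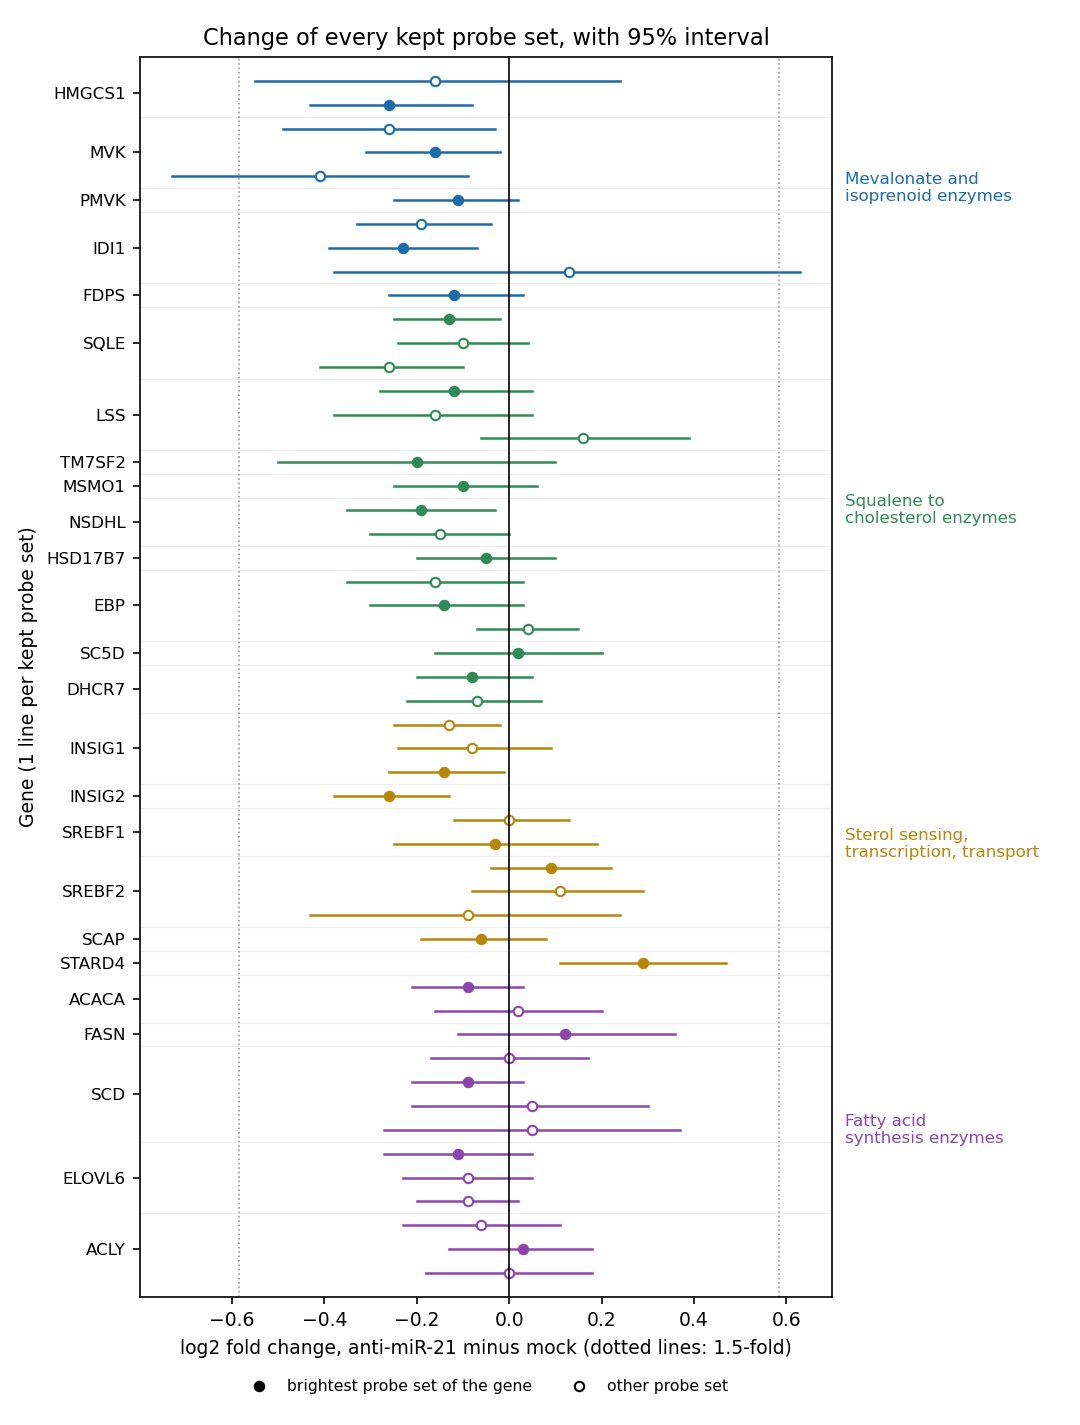
Log2 fold change, anti-miR-21 minus mock, of each of the 51 kept probe sets with its 95% interval (horizontal axis, log2 units), by gene and pathway step. Filled points are the brightest probe set of a gene, open points the others, and dotted lines mark 1.5-fold.

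Over all 51 kept probe sets of the members, 37 had a log2 fold change below 0, against 50.9% of all kept probe sets. Every anti-miR-21 array lay below every mock array in 19 and above in 2, against 12.6% and 11.4% of all kept probe sets. None of the 51 was called by limma, where 2.17% of all kept probe sets were. At an unadjusted p under 0.05 there were 13, of which 12 were lower, against 17.8% of all kept probe sets (9.7% lower and 8.06% higher). In 15 members with several kept probe sets, 7 had every one below 0 and 8 were mixed. No member had a probe set that differed from its others by limma at an adjusted p under 0.05 (1 of 41 probe sets at an unadjusted p under 0.05; smallest adjusted p = 0.221, for LSS), where 1.63% of 5285 genes with several kept probe sets did.

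Of 62 further genes of these pathways, 47 were tested. None was called by limma on its brightest probe set (3 higher and 5 lower at an unadjusted p under 0.05, where 6.84% of all genes were higher and 11.3% lower), and their median log2 fold change was -0.014. Of their 83 kept probe sets 1 was called, where 2.17% of all kept probe sets were. It belongs to PDSS2, a subunit of the enzyme that makes the isoprenoid tail of coenzyme Q, and read 7.32, 7.4 and 7.3 in anti-miR-21 cells, against 8.28, 8.01 and 8.15 in mock cells. The PDSS2 probe set fell by 0.81 ± 0.078 on the log2 scale (SE; adjusted p = 0.00792 by limma), and the other kept PDSS2 probe set, which is brighter, had 0.12 ± 0.062 (SE). The dimmer minus the brighter log2 fold change was -0.93 ± 0.101 (SE; adjusted p = 0.0103 by limma), so the array did not give PDSS2 1 direction.

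In the same isoprenoid list COQ2, which attaches that tail, had -0.11 and FNTA, a farnesyltransferase subunit, -0.05, with 5 of 7 tested genes below 0. Among genes of SREBP processing and turnover, 5 of 9 were below 0. MBTPS1, the site-1 protease that releases SREBP, had -0.23 (adjusted p = 0.151 by limma). SPRING1, which MBTPS1 needs, had -0.20 (adjusted p = 0.277 by limma), and ERLIN1, an endoplasmic reticulum membrane protein, 0.10 (adjusted p = 0.334 by limma). These 3 have the smallest p of the list, and none overlapped between groups. In the list, 3 of 9 genes (33.3%) lay lower without overlap and 1 (11.1%) higher, against 15.1% and 10.4% of all genes.

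Genes of sterol transport, storage and efflux were split, with 8 of 15 below 0. LIPA, which frees cholesterol from its esters in lysosomes, read 13.1, 13.0 and 12.99 in anti-miR-21 cells, against 13.21, 13.22 and 13.3 in mock cells (log2 fold change -0.21; adjusted p = 0.116 by limma). NPC1, which exports that cholesterol, read 10.73, 10.88 and 10.86 in anti-miR-21 cells, against 10.63, 10.5 and 10.65 in mock cells (0.23; adjusted p = 0.142 by limma). ABCA1, the efflux pump, had 0.21 (adjusted p = 0.246 by limma). None of these 3, which have the smallest p of their list by limma, overlapped between groups. In the list, 1 of 15 genes (6.67%) lay lower without overlap and 2 (13.3%) higher, against 15.1% and 10.4% of all genes. In the fatty acid supply list, 10 of 16 were below 0, with LPIN2, a phosphatidate phosphatase, at 0.21, ACSS2, which makes acetyl-CoA from acetate, at -0.16 and TECR, a reductase of fatty acid elongation, at -0.16.

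**Figure D4:**
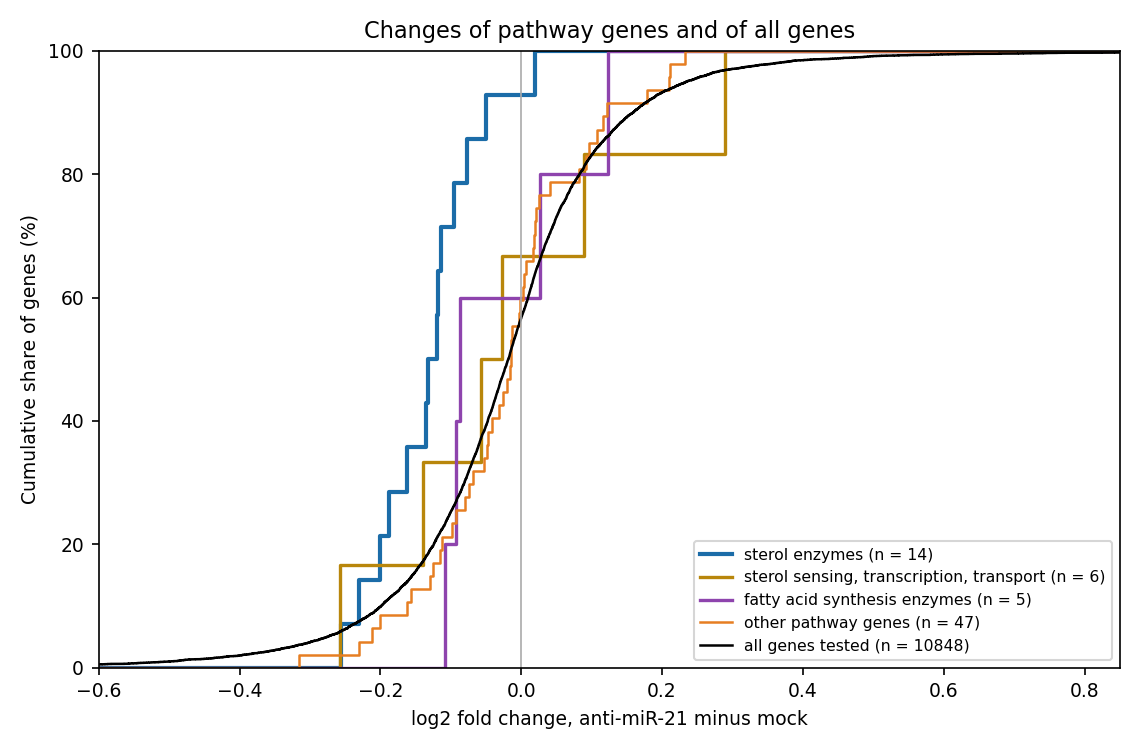
Cumulative share of genes (vertical axis, percent) by log2 fold change, anti-miR-21 minus mock (horizontal axis, log2 units), for 14 sterol enzymes, 6 regulators and carriers, 5 fatty acid enzymes, 47 other pathway genes and 10848 genes tested. The sterol enzyme curve lies left of the others near 0, with a median of -0.126 against -0.018 for all genes.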

How the data were processed

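RNA of 6 SK-Hep1 samples was hybridised as biotin-labelled cRNA, 1 array each. The labels give total RNA, while the extraction protocol cites an Argonaute immunoprecipitation procedure, so which fraction was hybridised is not settled here. The authors deposited log2 values of 54675 probe sets. Per the submitters' processing notes these are GCRMA values, and the version is not given in the sources used here. GCRMA compresses differences between dim probe sets. No scanner file was used here, so this step could not be varied.

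Probe sets took gene names from the platform annotation, matched by Entrez identifier to RefSeq GRCh38.p14. Of these, 41091 list 1 gene, and none was named from a probe set listing several. Probe sets with a mean of at least 4 were kept (22408, 41.0%) and compared between groups in limma 3.58.1 (R 4.3.3; lmFit, eBayes, two-sided, no covariate), with Benjamini-Hochberg adjustment over all of them and a threshold of 0.05. A gene took its brightest kept single-gene probe set. A p-value here reflects only the spread among these 6 samples, which may be technical, and the number of arrays limits precision. Alternatives were other filters, a trended robust fit, median centring, quantile normalization, other choices of probe set, a replicate block and leaving out each array. The 28 members and the other lists were chosen with earlier results of these data known. The text names all members and, of each other list, called genes and the 3 with the smallest p.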

Additional observations from a re-analysis of the deposited data

How the results depend on the processing

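Under 14 alternatives, 339 of 349 member log2 fold changes kept their direction and their side of the threshold. Of the other 10, INSIG2 passed the threshold with probe sets of a gene averaged, and 9 values, of ACLY, IDI1, SC5D, SCD and SREBF1, crossed or reached 0 without passing it. IDI1 had 0.13 on its only kept probe set of another type.

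Averaging a gene's probe sets called 1 member (INSIG2, -0.26), 1 other pathway gene (PDSS2, -0.34, adjusted p = 0.0217 by limma, over probe sets that disagree) and 355 genes in all, against 231, and moved the members' median to -0.086. The adjusted p of INSIG2 by limma ran from 0.0444 to 0.23 and that of STARD4 from 0.0779 to 0.306 over the alternatives. Leaving out 1 array at a time gave 0 called members, 0 to 0 called member probe sets, a members' median of -0.12 to -0.088, 38 to 226 called genes and 96 to 572 called probe sets. Called genes numbered 38 with mock replicate 2 left out, 80 with mock replicate 3, 44 with anti-miR-21 replicate 2 and 41 with anti-miR-21 replicate 3. With mock replicate 1 left out they numbered 198, and with anti-miR-21 replicate 1 left out 226, nearer to the 231 of all arrays. Members with every anti-miR-21 array below every mock array numbered 12 to 15, against 18% to 27% of all genes in the same settings. Members below 0 numbered 20 to 21. Both counts were chosen after seeing the data.

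Pairing by replicate number was examined on deviations from each group's mean over the kept probe sets. Same-numbered samples correlated at -0.361, -0.266 and -0.00187, and differently numbered ones at -0.232 to 0.399. So same-numbered samples were not the more alike, though deviations from a group mean are tied to each other, which limits this reading. With the replicate block, 32 genes and 91 probe sets were called, with 0 members. The cause of these differences was not tested. Leaving out any array leaves fewer samples, but the number of called genes depended on which array was left out. Dim probe sets limit what can be read of MVD.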
